A study of Mus musculus with 20 samples.

Results

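The genes described here are a list of 46 mouse 2-oxoglutarate-dependent dioxygenases other than the TET enzymes. These 46 genes were chosen with earlier results of these data known. They are 15 histone demethylases and near relatives of the Kdm and Phf families, 6 other proteins with a JmjC domain, 9 members of the AlkB family including Fto, 6 collagen and related prolyl and lysyl hydroxylases, 4 hydroxylases of the hypoxia-inducible factor (HIF), and 6 further enzymes. All 46 are in the table of 46078 genes, and 44 of them reached the mean of 1 TPM (transcript abundance divided by length and scaled to one fixed total per library) over all libraries that a gene needed to be tested, as did 14176 genes in all.

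Enzymes of this family use iron, molecular oxygen and 2-oxoglutarate to hydroxylate a substrate. When the substrate is a methyl group on a histone, on RNA or on DNA, the hydroxylated group is lost and the mark is removed. When it is a proline, lysine or asparagine residue, the hydroxyl group stays, and on HIF it marks the protein for destruction or blocks its activity. Mutant isocitrate dehydrogenases make 2-hydroxyglutarate, a close analogue of 2-oxoglutarate that competes with it in these enzymes, so the proteins are candidate targets of the mutation, while the data here are the RNA levels of their genes.

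RNA was sequenced from bone marrow cells sorted as lineage-negative, Kit-positive and Sca1-positive (LSK), the fraction that holds blood stem cells and multipotent progenitors, of C57Bl/6J mice aged 3 to 4 months. The 5 groups were +/+;Vav-Cre (WT), Idh1LSL-R132H/+;Vav-Cre (Idh1R132H), Idh2LSL-R140Q/+;Vav-Cre (Idh2R140Q), Idh2LSL-R172K/+;Vav-Cre (Idh2R172K) and Tet2-/- (Tet2KO). The WT and Idh groups share Vav-Cre, which acts in blood cells, whereas the Tet2KO label names no Cre and does not say which part of Tet2 is missing. Each group had 4 libraries, and each library came from a pool of 2 mice. Values of single libraries are given below in the order of their replicate numbers, 1 to 4, and TPM are per transcript length, so levels can be compared between genes.

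The depth was 35.1 to 45.0 M assigned reads per library. Kit (391 TPM), Cd34 (493 TPM), Flt3 (267 TPM) and Ly6a, which encodes Sca1 (168 TPM), were present in WT, while 2 of 5 B lineage, 3 of 6 T and NK and 6 of 7 stroma and endothelium markers averaged under 1 TPM over all libraries. The highest of those lists in WT were Cd79b (85.5 TPM), Nkg7 (825 TPM) and Pecam1 (61.4 TPM), and the defining genes Pax5, Cd3e and Col1a1 were each under 1 TPM. Erythroid markers summed to 599 to 808 TPM in WT and to 69.1 to 121 TPM in Idh2R172K and 374 to 502 TPM in Tet2KO. Of the 7 erythroid markers, 4 were called lower and 0 higher in Idh2R172K than in WT. In Tet2KO 3 were called lower and 2 higher. Macrophage markers summed to 126 to 147 TPM in WT, 69.6 to 90.4 TPM in Idh2R172K and 181 to 219 TPM in Tet2KO. Granulocyte-monocyte markers summed to 5111 to 7924 TPM in WT and 3448 to 4730 TPM in Idh2R172K, B lineage markers to 87.5 to 102 TPM and 30.5 to 62.7 TPM, and T and NK markers, with 2 of 3 tested called lower, to 794 to 1015 TPM and 724 to 809 TPM. Sums follow the most abundant genes of a list. In Idh2R172K, 2 of 9 granulocyte-monocyte and 1 of 3 tested B lineage markers were called lower than in WT. Estimates above 0 were found for 4 of 9 and 2 of 3. Of 8 LSK markers, 2 were called lower and 0 higher in Idh2R172K than in WT, and 1 was called higher in Tet2KO. The LSK list summed to 1313 to 1561 TPM in WT and 1485 to 1646 TPM in Idh2R172K. Among 5 megakaryocyte markers 1 was called higher and 1 lower in Idh2R172K, and among 4 basophil and mast markers 1 higher and 2 lower. In bulk RNA, a smaller share of cells expressing a gene and less RNA per cell cannot be told apart. Tet2 measured 7.50 TPM in WT and 9.91 TPM in Tet2KO, and a value over the whole gene does not test the deletion. Idh2 measured 529 ± 80.6 TPM (SD, n = 4) in WT and 937 ± 62.8 TPM in Idh2R172K.

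Of the 20 libraries 5 stood apart, the number 4 libraries of WT and the 3 Idh groups, and replicate 2 of Tet2KO. The most abundant single gene model held 7.55 to 8.13% of the TPM in those number 4 libraries, 20.0% in Tet2KO replicate 2 and 9.57 to 13.5% in the others. Immediate early and heat shock genes summed to 3618 TPM in WT replicate 4 and to 1365 to 1610 TPM in the other WT libraries. Results are therefore given with and without these libraries, and their part in a result was not tested beyond that. The 5 libraries were picked from these data. Number 4 was the highest of its group in WT and all Idh groups in 35.1% of all tested genes. Tet2KO replicate 2 was the lowest of its group in 67.5%. Leaving them out can by itself narrow the spread and raise Tet2KO against the other groups. The p-values without them do not account for that choice.

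In WT cells the family spanned more than an order of magnitude. Egln2, a HIF prolyl hydroxylase, was the most abundant at 79.7 ± 12.2 TPM (SD, n = 4), followed by Phyh, the peroxisomal enzyme of phytanic acid breakdown, at 60.9 ± 1.93 TPM, Ogfod3 at 60.9 ± 2.27 TPM and Alkbh7, a mitochondrial AlkB protein, at 57.5 ± 6.35 TPM. Phyh, Ogfod3 and Alkbh7 did not differ beyond their spread. Among the demethylases Kdm3a (47.2 ± 18.8 TPM), the RNA demethylase Fto (44.3 ± 1.89 TPM) and Kdm3b (43.0 ± 8.63 TPM) lay highest and overlapped, as did the HIF hydroxylase Egln3 (44.4 ± 2.56 TPM). At the low end were Hspbap1 (4.99 TPM), Plod2 (3.95 TPM), P4htm (3.83 TPM) and the Polycomb-opposing demethylase Kdm6b (3.07 TPM). P4ha2, a catalytic subunit of collagen prolyl hydroxylase, stayed between 0.0734 and 0.416 TPM in the 20 libraries, below the level needed for the test. Tmlhe, the first enzyme of carnitine synthesis, is listed at 0 in all 20; its gene lies on an unplaced scaffold, and all 86 scaffold genes of the table are listed at 0.

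Against WT, Idh2R172K cells had 3 histone demethylases higher (Jmjd1c, Kdm6b and Kdm5b) and 4 other dioxygenases lower (Egln3, Alkbh7, Ogfod3 and Phyh). These 7 calls among 44 tested genes (limma, adjusted p under 0.05 over all genes) compare with 15.4% of all tested genes called, 8.03% higher and 7.33% lower, so the share of called genes in the family was close to that of the transcriptome. The median log2 difference was 0.20 over the 44 genes and 0.11 over all genes, and 34 of 44 lay above 0 against 63.1% of all genes. By family, all 15 histone demethylases had estimates above 0, with a median of 0.38, and so did 5 of 6 other JmjC proteins, 7 of 9 AlkB genes, 3 of 5 prolyl and lysyl hydroxylases, 2 of 4 HIF hydroxylases and 2 of 5 further enzymes. All 15 histone demethylases also lay above 0 in Idh1R132H and in Idh2R140Q, against the same WT libraries. Of 27 histone lysine methyltransferase genes, which act opposite to them, 24 lay above 0 in Idh2R172K, with a median of 0.23. The calls fell to 3 (Egln3, Jmjd1c and Kdm6b) on removing replicate 4 or 2 of Idh2R172K, or replicate 3 or 2 of WT. With median-of-ratios scaling 8 genes were called, 4 higher and 4 lower, against 19.6% of all genes, 8.66% higher and 11% lower. The erythroid, macrophage, granulocyte-monocyte and B lineage sums were lower in the same libraries without overlap with WT, as given above. Single markers did not all fall: 4 of 9 granulocyte-monocyte and 2 of 3 tested B lineage genes had estimates above 0. Of the immediate early and heat shock genes, 2 of 20 were called higher (Ier3 and Btg2). The part of these lists in the differences was not tested.

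**Figure D1:**
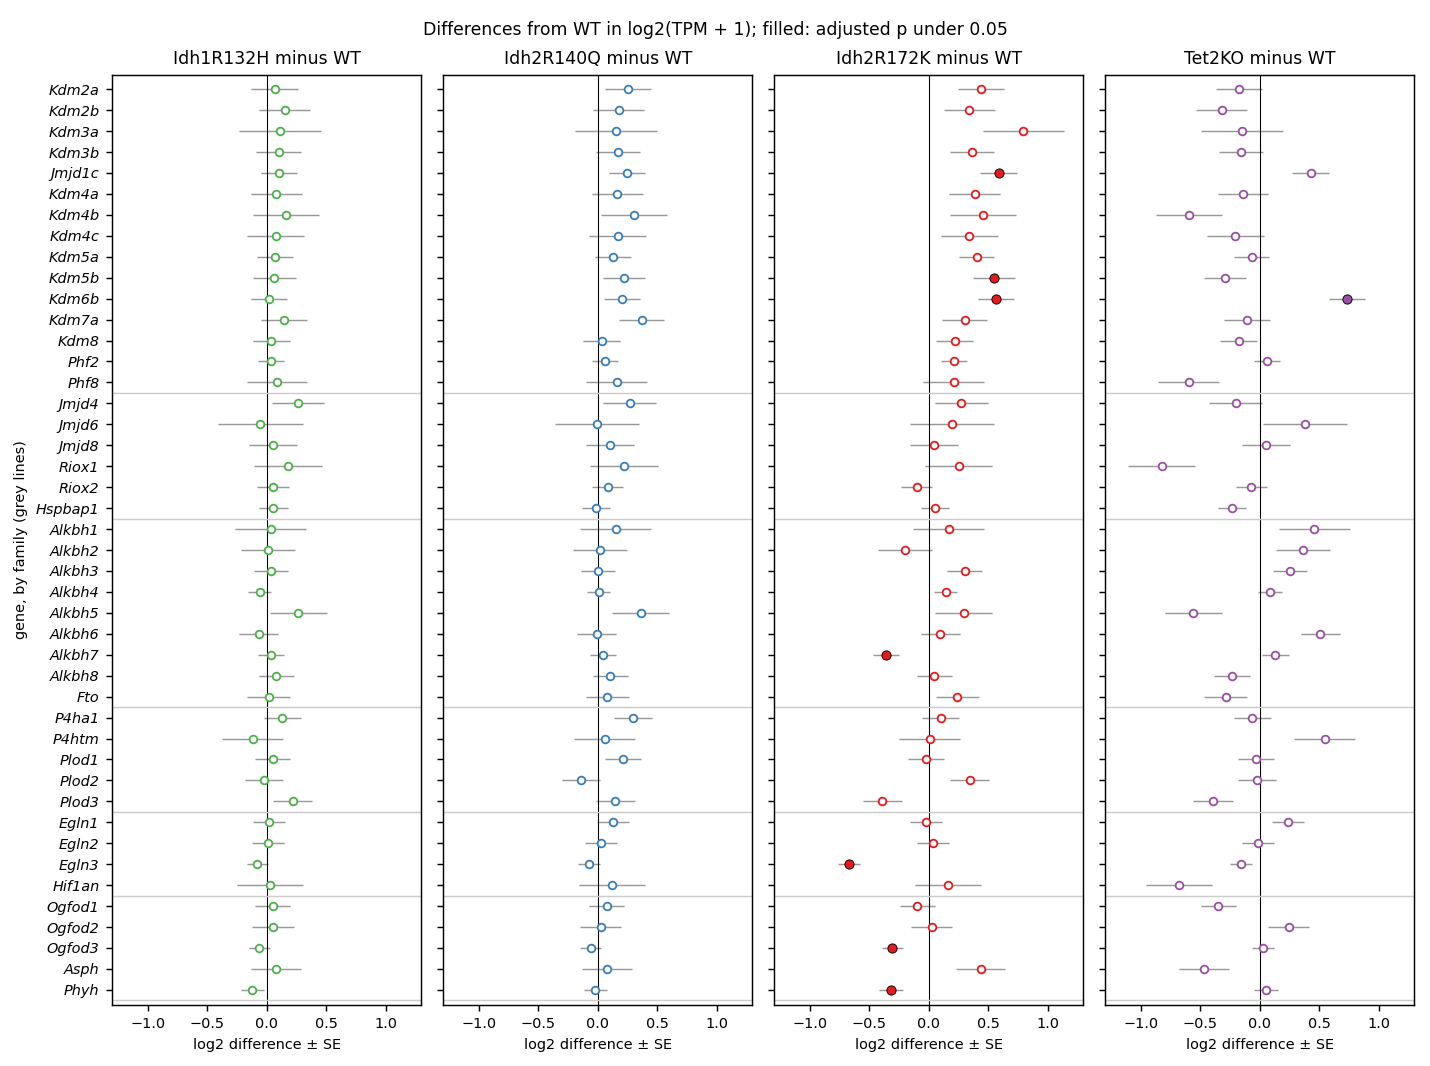
Log2 difference from WT in log2(TPM + 1) (horizontal axis, bars are SE) for the 44 tested genes in each mutant group, in family order from the histone demethylases at the top, with grey lines between families. Filled points passed an adjusted p of 0.05: 0 in Idh1R132H, 0 in Idh2R140Q, 7 in Idh2R172K and 1 in Tet2KO.

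The windows upstream of the annotated start are shown for the gene that fell most clearly and for 2 of the demethylases that rose. Capitals mark ACGTG or GCGTG on either strand, the core letters bound by HIF; a match describes the letters only. Sequences are from RefSeq on GRCm38.p6, the 250 bases before the start, in the direction of transcription, and 37 of the 46 genes had an entry, with 47 starts in all.
Egln3: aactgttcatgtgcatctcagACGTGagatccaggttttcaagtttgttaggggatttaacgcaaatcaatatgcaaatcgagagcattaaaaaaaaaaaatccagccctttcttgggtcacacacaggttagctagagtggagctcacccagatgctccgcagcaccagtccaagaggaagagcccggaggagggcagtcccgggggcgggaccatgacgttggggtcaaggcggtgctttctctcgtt
Jmjd1c: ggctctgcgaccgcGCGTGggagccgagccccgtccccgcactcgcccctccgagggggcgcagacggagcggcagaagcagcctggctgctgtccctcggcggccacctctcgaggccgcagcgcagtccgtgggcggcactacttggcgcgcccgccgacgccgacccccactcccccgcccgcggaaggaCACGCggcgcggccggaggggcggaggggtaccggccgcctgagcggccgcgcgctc
Kdm5b: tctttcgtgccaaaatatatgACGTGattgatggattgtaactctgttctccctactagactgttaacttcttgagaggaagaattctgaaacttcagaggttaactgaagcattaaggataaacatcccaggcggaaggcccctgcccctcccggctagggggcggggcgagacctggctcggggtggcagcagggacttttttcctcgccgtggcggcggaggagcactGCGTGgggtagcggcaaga
The windows are chr12:54203875-54204124 on the minus strand for Egln3, chr10:67126838-67127087 on the plus strand for the first of 2 RefSeq starts of Jmjd1c, and chr1:134559928-134560177 on the plus strand for Kdm5b. In the GENCODE annotation Jmjd1c begins further upstream, at 67096125, so its window lies inside that gene model. The windows held 1, 2 and 2 matches, and the second start of Jmjd1c held 0. Of the 47 windows of the family 59.6% held at least 1 match, against 38.6% of the 32851 windows of all genes, and the GC content of the 3 shown ran from 50.8 to 79.6%. The windows of all genes were not matched for GC content, which was 39.6% in a Kdm4c window and 86% in that of Egln1. Windows of one gene can overlap, as in Kdm2b, so the 47 are not independent. The difference between the shares was not tested. The second motif searched, AGATAA on either strand, the letters bound by GATA factors, was in 12.8% of the family's windows and 9.99% of all.

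Among the HIF hydroxylases, Egln3 fell and its relatives did not pass the test. Egln3 (ENSMUSG00000035105, chromosome 12, 54178981 to 54203860, minus strand, mm10) encodes PHD3, a prolyl hydroxylase that is itself a HIF target. It measured 46.4, 43.2, 41.4 and 46.7 TPM in WT and 27.3, 28.8, 32.1 and 22.6 TPM in Idh2R172K. All 4 mutant libraries lay below all 4 WT libraries, and the log2 difference was -0.67 ± 0.09 (SE, limma adjusted p = 3.61e-05). It stayed called under all 8 alternatives and without any single library. The library of Idh2R172K that stood apart, replicate 4, had the lowest value, 0.770 times the mean of the other 3, while the ratio was 1.07 for WT replicate 4, 0.939 for Idh1R132H, 1.02 for Idh2R140Q and 0.991 for Tet2KO replicate 2.

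The other 3 HIF hydroxylases did not pass in Idh2R172K. Egln1 (PHD2), the main oxygen sensor of the family, had a log2 difference of -0.03 (95% interval -0.31 to 0.26). Egln2 had 0.03 (-0.25 to 0.31), and Hif1an, the asparaginyl hydroxylase of HIF, had 0.16 (-0.43 to 0.74). The intervals of all 3 genes lie above the estimate for Egln3.

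Of the histone demethylases, Jmjd1c rose most firmly. Jmjd1c (ENSMUSG00000037876, chromosome 10, 67096125 to 67256326, plus strand), a relative of the Kdm3 enzymes, measured 12.8, 14.3, 14.0 and 17.9 TPM in WT and 20.9, 23.4, 19.7 and 26.2 TPM in Idh2R172K. The groups did not overlap, with a log2 difference of 0.59 ± 0.15 (limma adjusted p = 0.0129). Its call held under all 8 alternatives and without any single library.

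Kdm6b (ENSMUSG00000018476, chromosome 11, 69398508 to 69413675, minus strand), which removes the methyl mark set by Polycomb, measured 2.68, 3.10, 2.99 and 3.51 TPM in WT and 5.51, 4.78, 4.62 and 5.13 TPM in Idh2R172K. Every mutant library was above every WT library (log2 difference 0.56 ± 0.15, limma adjusted p = 0.0153). With median-of-ratios scaling the adjusted p was 0.0661. An antisense gene, Kdm6bos, overlaps 4.11% of its exon bases and measured 0.168 TPM in WT.

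Kdm5b (ENSMUSG00000042207, chromosome 1, 134560171 to 134635285, plus strand), which removes the methyl mark of active promoters, measured 32.4, 25.6, 27.3 and 29.2 TPM in WT and 39.6, 44.9, 36.3 and 48.9 TPM in Idh2R172K. The groups did not overlap (log2 difference 0.55 ± 0.18, limma adjusted p = 0.0440). The call was lost with no filter on low values (adjusted p = 0.0700) and on leaving out any of 6 of the 8 libraries.

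The other 12 histone demethylases had estimates between 0.21 and 0.80 in Idh2R172K, and none passed. The highest was Kdm3a, a demethylase of repressive histone marks that is also a HIF target, at 38.5, 37.4, 37.3 and 75.4 TPM in WT and 74.2, 73.0, 57.8 and 122 TPM in Idh2R172K. The WT number 4 library was above 3 of the 4 mutant libraries, and the log2 difference was 0.80 ± 0.34 (limma adjusted p = 0.130). The lowest estimates were those of Phf2 (8.44 and 9.93 TPM, 0.21 ± 0.11), Phf8 (0.21) and Kdm8 (28.2 and 32.9 TPM, 0.22 ± 0.16). Kdm5a came nearest to the threshold (32.4 ± 2.55 and 43.0 ± 1.88 TPM, adjusted p = 0.0775).

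Without the 5 libraries that stood apart, 18 of the 44 genes were called in Idh2R172K against WT, 14 higher and 4 lower, while 32.7% of all genes were called, 22.2% higher. All 7 calls were kept. The histone demethylases then had 10 of 15 higher and 0 lower; Kdm3a had a log2 difference of 0.83 (adjusted p = 2.31e-05), and Kdm2a, Kdm2b, Kdm3b, Kdm4a, Kdm4c and Kdm5a joined it. Outside them Alkbh4, Fto, Plod2 and Asph were higher, Asph by 0.51 on the log2 scale (adjusted p = 0.00218).

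In the AlkB family only Alkbh7 passed in Idh2R172K. Alkbh7 (ENSMUSG00000002661, chromosome 17, 56997339 to 56999322, plus strand), which acts in mitochondria, measured 62.7, 61.7, 56.8 and 48.8 TPM in WT and 53.2, 42.5, 44.6 and 38.4 TPM in Idh2R172K. The groups overlapped through WT replicate 4 and Idh2R172K replicate 1, and the log2 difference was -0.36 ± 0.11 (limma adjusted p = 0.0350). The call was lost with median-of-ratios scaling, in a fit of the 2 groups alone and on leaving out any of 6 libraries, with an adjusted p of up to 0.125 among the latter.

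The remaining AlkB genes include Alkbh5 and Fto, which remove methyl groups from adenosine in RNA. Fto was at 42.9, 46.8, 44.7 and 42.9 TPM in WT and 54.0, 54.4, 51.3 and 50.2 TPM in Idh2R172K. These values did not overlap, but the log2 difference of 0.24 ± 0.18 did not pass (limma adjusted p = 0.419). It was not called in the fit of the 2 groups alone either. Alkbh5 had a log2 difference of 0.29 (95% interval -0.21 to 0.80), and the DNA repair enzymes Alkbh2 and Alkbh3 had -0.20 ± 0.23 and 0.30 ± 0.14.

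Ogfod3 (ENSMUSG00000025169, chromosome 11, 121177591 to 121204711, minus strand) measured 59.6, 64.2, 60.4 and 59.3 TPM in WT and 51.1, 46.7, 52.5 and 46.1 TPM in Idh2R172K. Phyh (ENSMUSG00000026664, chromosome 2, 4919019 to 4938730, plus strand) measured 59.0, 60.6, 60.5 and 63.6 TPM in WT and 45.3, 48.6, 49.6 and 51.0 TPM in Idh2R172K. In both genes the mutant libraries lay below every WT library, by a log2 difference of -0.31 ± 0.09 for Ogfod3 (limma adjusted p = 0.0276) and -0.32 ± 0.10 for Phyh (limma adjusted p = 0.0350). Phyh missed the threshold whichever library was left out (0.0507 to 0.0931), and Ogfod3 missed it on removing replicate 4 or 2 of Idh2R172K, or replicate 3 or 2 of WT. Exons of Hexdc on the opposite strand cover 17% of those of Ogfod3, and the strand setting of the counting is not given in the sources used here.

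Among the other JmjC proteins 0 of 6 were called by limma, and 0 had an unadjusted p under 0.05. Of all genes, 15.4% were called and 28.8% had an unadjusted p under 0.05, so few were to be found among 6. Riox2, a relative of Riox1, was the 1 with an estimate below 0 (30.5 TPM in WT and 28.3 TPM in Idh2R172K, -0.10 ± 0.13), and Jmjd4 had 10.4 and 12.6 TPM (0.27 ± 0.22).

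None of the 5 tested prolyl and lysyl hydroxylases passed in Idh2R172K against WT, where 15.4% of all genes were called. Plod3, a lysyl hydroxylase of collagen, had the lowest estimate (34.6 ± 7.51 and 25.8 ± 2.02 TPM, log2 difference -0.39 ± 0.17, limma adjusted p = 0.124). Plod3 was called lower with median-of-ratios scaling (-0.49, limma adjusted p = 0.0112) and with the replicate block (-0.39, 0.0355). Plod2 had the highest estimate (3.95 ± 0.607 and 5.29 ± 0.906 TPM, 0.34 ± 0.16, adjusted p = 0.169). It was called higher without the 5 libraries that stood apart (0.32, adjusted p = 0.0208). P4ha1 and Plod1 had estimates of 0.10 and -0.02.

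**Figure D2:**
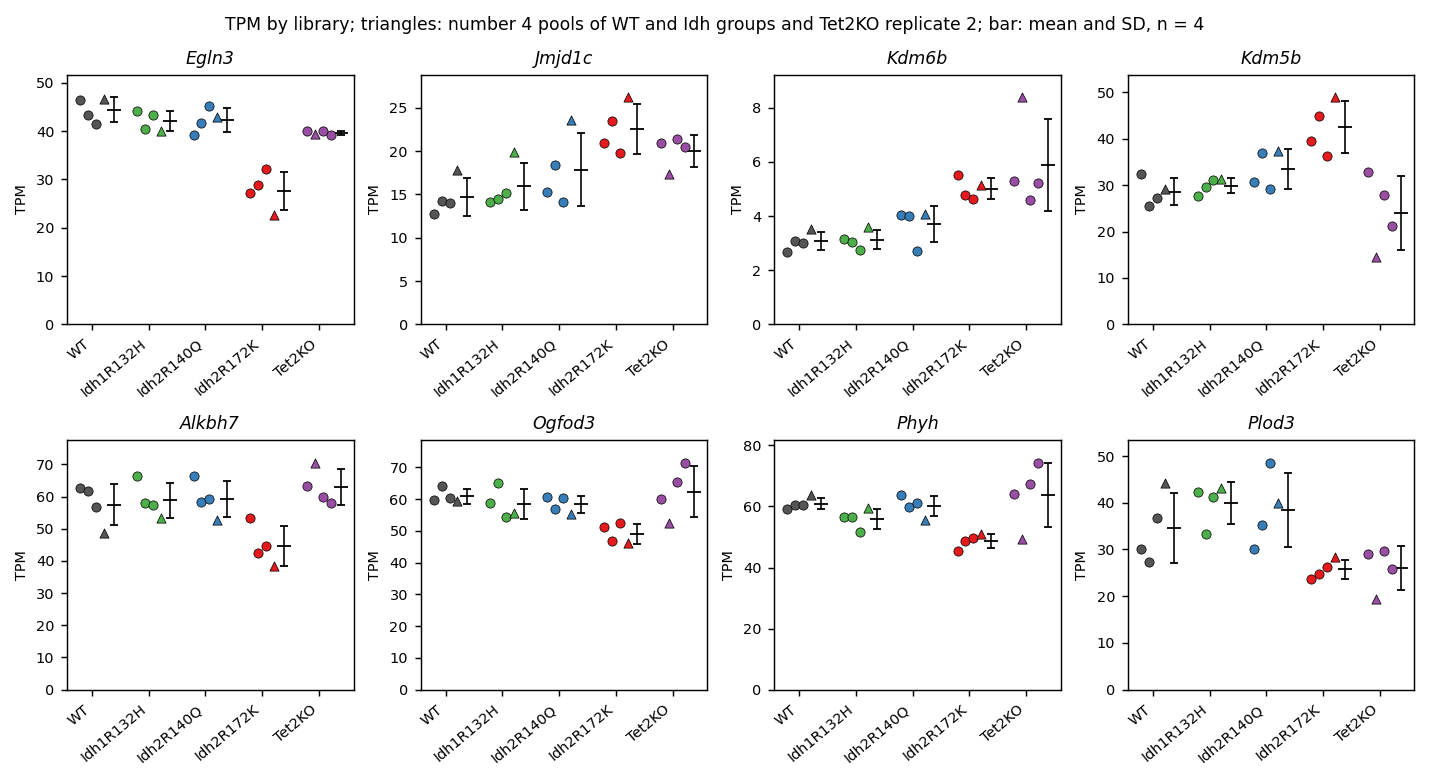
TPM (vertical axis, from 0) of 8 called genes in each library of the 5 groups, replicates 1 to 4 from left to right, with the group mean and SD (n = 4) beside them; triangles are the libraries that stood apart. Egln3 in Idh2R172K (22.6 to 32.1 TPM) lies below the other 16 libraries, and Kdm6b lies higher in both Idh2R172K and Tet2KO than in WT.

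The other 2 Idh mutants did not differ detectably from WT in these genes. In Idh1R132H, 0 of 44 were called by limma and 0 had an unadjusted p under 0.05, against 0.00705% of all genes called and 229 genes (1.62%) with an unadjusted p under 0.05. In Idh2R140Q the counts were again 0 and 0, against 0% of all genes called and 407 genes (2.87%) with an unadjusted p under 0.05. Estimates ran from -0.12 (Phyh) to 0.27 (Alkbh5) in Idh1R132H and from -0.14 (Plod2) to 0.37 (Kdm7a) in Idh2R140Q. Both counts were 0 under every alternative, including the fits without the libraries that stood apart. With the replicate number as a block 0.0141% of all genes were called in Idh1R132H. All 15 histone demethylases had estimates above 0 in both groups, as in Idh2R172K. Their median log2 differences were 0.08 in Idh1R132H and 0.17 in Idh2R140Q, against 0.04 and 0.08 for all genes. Of all genes, 65% and 71.6% lay above 0. This was not particular to the demethylases. Of 27 histone lysine methyltransferase genes, 26 lay above 0 in Idh1R132H and 25 in Idh2R140Q, with medians of 0.09 and 0.14.

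Of the genes that moved in Idh2R172K, Egln3 was near WT in these 2 groups. Egln3 measured 44.2, 40.5, 43.2 and 40.1 TPM in Idh1R132H and 39.3, 41.6, 45.1 and 42.9 TPM in Idh2R140Q. The log2 differences from WT were -0.08 (95% interval -0.27 to 0.11) and -0.07 (-0.26 to 0.12), so a fall of the size seen in Idh2R172K lies outside both intervals. The Jmjd1c estimates were 0.10 (-0.22 to 0.42) and 0.25 (-0.07 to 0.57), and those of Kdm6b were 0.02 (-0.30 to 0.34) and 0.20 (-0.12 to 0.52). For Kdm5b they were 0.07 (-0.31 to 0.44) and 0.22 (-0.16 to 0.59), and the latter interval holds its Idh2R172K estimate of 0.55. The Idh2R140Q means of Jmjd1c, Kdm6b and Kdm5b lay between those of WT and Idh2R172K, and none was called against either. The estimates of Alkbh7, Ogfod3 and Phyh in both groups ran from -0.12 to 0.04.

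Idh2R172K was then compared with the other 2 Idh mutants directly; both comparisons use the same Idh2R172K libraries. Against Idh2R140Q, 3 of 44 genes were called, all lower (Egln3, Alkbh7 and Plod3), with 10.5% of all genes called, 3.76% higher and 6.74% lower. Against Idh1R132H, 5 were called, with Jmjd1c and Kdm6b higher and the same 3 genes lower, and 13.5% of all genes were called, 6.21% higher and 7.32% lower. The log2 differences of Egln3 were -0.60 ± 0.09 (limma adjusted p = 0.000146) and -0.59 ± 0.09 (adjusted p = 0.000148), and those of Alkbh7 were -0.40 ± 0.11 (0.0242) and -0.39 ± 0.11 (0.0233). Alkbh7 measured 66.3, 58.0, 57.5 and 53.4 TPM in Idh1R132H and 66.4, 58.4, 59.2 and 52.8 TPM in Idh2R140Q. It did not overlap with Idh1R132H and overlapped with Idh2R140Q through replicate 1 of Idh2R172K (53.2 TPM). Jmjd1c measured 14.1, 14.5, 15.2 and 19.9 TPM in Idh1R132H, and Kdm6b measured 3.16, 3.04, 2.73 and 3.58 TPM. Jmjd1c differed by 0.48 ± 0.15 (adjusted p = 0.0424) with an overlap through Idh1R132H replicate 4, and Kdm6b by 0.54 ± 0.15 (adjusted p = 0.0211) without overlap.

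Plod3 (ENSMUSG00000004846, chromosome 5, 136987019 to 136996648, plus strand) measured 42.4, 33.3, 41.3 and 43.1 TPM in Idh1R132H, 30.0, 35.1, 48.6 and 40.0 TPM in Idh2R140Q and 23.8, 24.8, 26.2 and 28.4 TPM in Idh2R172K. Its Idh2R172K values were below all values of both other groups, by -0.61 ± 0.17 (adjusted p = 0.0180) and -0.54 ± 0.17 (adjusted p = 0.0436). Exons of Znhit1 on the opposite strand cover 11.7% of its exon bases.

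Same-numbered libraries of these 3 Idh groups deviated together, and with the number as a block the count against Idh2R140Q was 5, with Plod2 added higher and Phyh added lower, against 14.6% of all genes. Against Idh1R132H it was again 5, against 19.5% of all genes. Without the libraries that stood apart 12 genes (7 higher, 5 lower) differed from Idh2R140Q and 16 (11 higher, 5 lower) from Idh1R132H, against 20.3 and 26.9% of all genes. With median-of-ratios scaling the calls were 3 higher and 3 lower against Idh2R140Q (5.77 and 8.1% of all genes), and 3 higher and 2 lower against Idh1R132H (7.95 and 9.67% of all genes). Leaving out Idh2R172K replicate 2 or 4, or Idh2R140Q replicate 2 or 3, left 1 call against Idh2R140Q, which was Egln3; against Idh1R132H 2 or 3 calls were left without Idh1R132H replicate 1, 2 or 3 or Idh2R172K replicate 1, 2 or 4.

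In Tet2KO cells 1 of 44 genes, Kdm6b, was called against WT, with 7.05% of all genes called, 5.02% higher and 2.02% lower. Kdm6b measured 5.28, 8.39, 4.59 and 5.24 TPM in Tet2KO, all above the 4 WT values of 2.68 to 3.51 TPM. The log2 difference was 0.73 ± 0.15 (limma adjusted p = 0.0118), and the highest value was in Tet2KO replicate 2. The call held without any single library and without the 5 libraries that stood apart (0.62, adjusted p = 0.00279); in a fit of the 2 groups alone the adjusted p was 0.112. Kdm6b was thus higher than in WT in both Idh2R172K and Tet2KO, 2 comparisons that share the WT libraries.

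The median log2 difference of the 44 genes in Tet2KO was -0.09, with 16 above 0, against 0.02 and 52.8% for all genes, and 3 of the 15 histone demethylases lay above 0. Jmjd1c was at 21, 17.3, 21.4 and 20.5 TPM, above WT in 3 of the 4 libraries, and did not pass (0.43 ± 0.15, limma adjusted p = 0.0901). Riox1, a ribosomal oxygenase, was at 18.6, 17.9, 13.7 and 10.7 TPM in Tet2KO and 34.3, 16.2, 42.8 and 22.6 TPM in WT (-0.83 ± 0.28, adjusted p = 0.0795). Immediate early and heat shock genes summed to 2540 to 3946 TPM in Tet2KO, above the 3 lower WT libraries, with 3 of 20 called higher (Ier3, Fosb and Nr4a1), and their part in these differences was not tested. Egln3, at 40.0, 39.4, 39.9 and 39.3 TPM, lay just below the WT values and did not pass (-0.16 ± 0.09, adjusted p = 0.272).

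The estimates of Tet2KO depended on the libraries and the scaling, and 1 more gene was called without WT replicate 2 (Riox1), WT replicate 4 (Alkbh6) or Tet2KO replicate 1 (Phf8). Without the 5 libraries that stood apart, 16 genes were called, 14 higher and 2 lower, against 31.8% of all genes called, 28.5% higher and 3.36% lower, and 12 of 15 histone demethylases lay above 0. The genes higher were Kdm3a, Jmjd1c, Kdm4c, Kdm6b, Jmjd6, Jmjd8, Alkbh1, Alkbh3, Alkbh4, Alkbh6, P4htm, Egln2, Ogfod2 and Phyh; those lower were Riox1 (-1.0) and Alkbh5 (-0.67). With median-of-ratios scaling on all libraries, 11 were called, 3 higher (Jmjd1c, Kdm6b and Alkbh6) and 8 lower (Kdm4b, Phf8, Riox1, Alkbh8, Plod3, Hif1an, Ogfod1 and Asph), against 19.6% of all genes, 6.96% higher and 12.7% lower. Kdm3a shows the difference: its estimate against WT was -0.15 with all libraries and 0.48 without those 5 (adjusted p = 0.00158). In Kdm3a, WT replicate 4 was the highest and Tet2KO replicate 2 the lowest of its group. Leaving both out raises such an estimate by itself. Of the 44 genes, 23 had number 4 highest in WT and all Idh groups and Tet2KO replicate 2 lowest.

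P4htm, a membrane-bound prolyl hydroxylase, measured 3.16, 3.21, 2.90 and 6.06 TPM in WT and 6.52, 3.76, 6.35 and 7.29 TPM in Tet2KO. The 3 lower WT libraries were below every Tet2KO library, and WT replicate 4 lay within the Tet2KO range. Its log2 difference was 0.54 ± 0.26 with all libraries (limma adjusted p = 0.186) and 0.92 ± 0.09 without the 5 (adjusted p = 3.12e-05). Alkbh6 was at 25.9, 25.8, 25.0 and 32.7 TPM in WT and 38.4, 37.8, 40.1 and 40.0 TPM in Tet2KO; these did not overlap, yet the difference of 0.51 ± 0.16 did not pass with all libraries (adjusted p = 0.0634) and passed without the 5 (0.61, adjusted p = 8.43e-05).

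The direct comparison of Idh2R172K with Tet2KO called 17 of the 44 genes, 13 higher and 4 lower in Idh2R172K, against 26.8% of all genes, 14.9% higher and 11.9% lower. Of the histone demethylases 8 of 15 were higher and 0 lower (Kdm2a, Kdm2b, Kdm3a, Kdm3b, Kdm4b, Kdm5a, Kdm5b and Phf8), and 14 of 15 estimates were above 0, with a median of 0.53 against 0.06 for all genes. Riox1, Alkbh5, Fto, Hif1an and Asph were also higher. Lower in Idh2R172K were Egln3, Alkbh7, Ogfod3 and Phyh, the genes that were lower against WT as well.

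Asph, the aspartyl and asparaginyl hydroxylase of the endoplasmic reticulum, measured 18.6, 20.5, 17.6 and 17.3 TPM in Idh2R172K and 12.9, 4.41, 12.1 and 10.7 TPM in Tet2KO. The groups did not overlap (log2 difference 0.91 ± 0.21, limma adjusted p = 0.00464), and without the libraries that stood apart the difference was 0.62 (adjusted p = 0.000436). Kdm5b measured 32.9, 14.5, 27.8 and 21.1 TPM in Tet2KO, all below the 36.3 to 48.9 TPM of Idh2R172K (0.84 ± 0.18, adjusted p = 0.00257; 0.56 without those libraries). In both genes Tet2KO replicate 2 was the lowest library.

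Kdm4b, a demethylase of repressive histone marks, measured 42.7, 59.2, 43.2 and 76.6 TPM in Idh2R172K and 38.9, 12.5, 35 and 23.9 TPM in Tet2KO (1.05 ± 0.28, limma adjusted p = 0.0109), and the estimate without the libraries that stood apart was 0.57. Riox1 measured 20.3, 41.9, 26.1 and 49.8 TPM in Idh2R172K, above its 10.7 to 18.6 TPM in Tet2KO (1.08 ± 0.28, adjusted p = 0.0111; 0.96 without those libraries). Gm26571 on the opposite strand covers 31.9% of the exon bases of Riox1 and is listed at 0.

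Alkbh7 measured 63.2, 70.6, 60.0 and 58.1 TPM in Tet2KO, all above the 38.4 to 53.2 TPM of Idh2R172K (-0.49 ± 0.11, limma adjusted p = 0.00431). Egln3 differed by -0.51 ± 0.09 (adjusted p = 0.000663), with all Idh2R172K libraries below all Tet2KO libraries. Ogfod3 (60.2, 52.6, 65.3 and 71.5 TPM in Tet2KO) differed by -0.33 ± 0.09 (adjusted p = 0.0133) and Phyh (64.2, 49.4, 67.3 and 74.4 TPM) by -0.37 ± 0.10 (adjusted p = 0.0120). The Phyh groups overlapped through Tet2KO replicate 2.

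The 9 further genes called higher in Idh2R172K than in Tet2KO had log2 differences of 0.47 (Kdm5a) to 0.95 (Kdm3a). Each of them had its lowest Tet2KO value in replicate 2 except Alkbh5, which ran 15.0, 12.4, 9.91 and 7.94 TPM in Tet2KO against 14.9, 23.2, 16.4 and 32.3 TPM in Idh2R172K. Kdm2a measured 34.6, 39.8, 30.8 and 48.3 TPM in Idh2R172K and 31.0, 16.2, 29.8 and 23.6 TPM in Tet2KO. Kdm2b measured 19.4, 21.5, 19.4 and 25.4 TPM against 16.8, 7.41, 16.6 and 14.0 TPM. Kdm3a measured 50.4, 17.5, 57.3 and 51.8 TPM in Tet2KO, with its Idh2R172K values given above. Both Kdm2b and Kdm3a were higher in every Idh2R172K library, while the Kdm2a groups overlapped.

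Kdm3b measured 47.2, 54.2, 52.4 and 67.1 TPM in Idh2R172K and 47.9, 27.4, 43.6 and 36.1 TPM in Tet2KO, with an overlap through Tet2KO replicate 1. Kdm5a measured 43.2, 42.8, 40.8 and 45.4 TPM against 36.5, 19.6, 38.4 and 32.3 TPM. Fto measured 46, 19.5, 46.7 and 40.4 TPM in Tet2KO. The groups of Kdm5a and Fto did not overlap. Hif1an measured 34.2, 9.98, 38.6 and 27.3 TPM in Tet2KO and 44.2, 44.3, 38.4 and 54.0 TPM in Idh2R172K, and Phf8 measured 26.6, 6.89, 23.3 and 17.8 TPM against 29.3, 28.3, 30.8 and 32.3 TPM. Their log2 differences of 0.84 and 0.81 were 0.35 and 0.39 without the libraries that stood apart. Without those libraries the differences were also smaller for Kdm3a (0.35), Kdm2b (0.33), Kdm2a (0.31), Kdm3b (0.27), Fto (0.26) and Kdm5a (0.24). Leaving out Tet2KO replicate 2 alone ended the calls of Kdm3a (adjusted p = 0.177), Kdm3b (0.154), Kdm2a (0.0926), Kdm2b (0.0925) and Hif1an (0.0605).

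Without those 5 libraries 25 genes differed, 12 higher and 13 lower in Idh2R172K, against 35.1% of the genes tested (11.7% higher, 23.5% lower). Of the 17 calls 16 were kept, and Kdm2a was lost; the genes added were all lower in Idh2R172K, with P4htm (-0.92) and Alkbh2 (-0.75) the furthest. With median-of-ratios scaling 26 genes were called, 19 higher and 7 lower, against 34.8% of the genes tested, 20.8% higher and 14% lower. In a fit of the 2 groups alone only Egln3 was called. Leaving out Idh2R172K replicate 2 left 9 calls, leaving out Tet2KO replicate 4 left 10, and leaving out Idh2R172K replicate 4 left 11, with 4 higher and 7 lower. The shares of all genes called in the 2-group fit and in these fits are not given here.

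**Figure D3:**
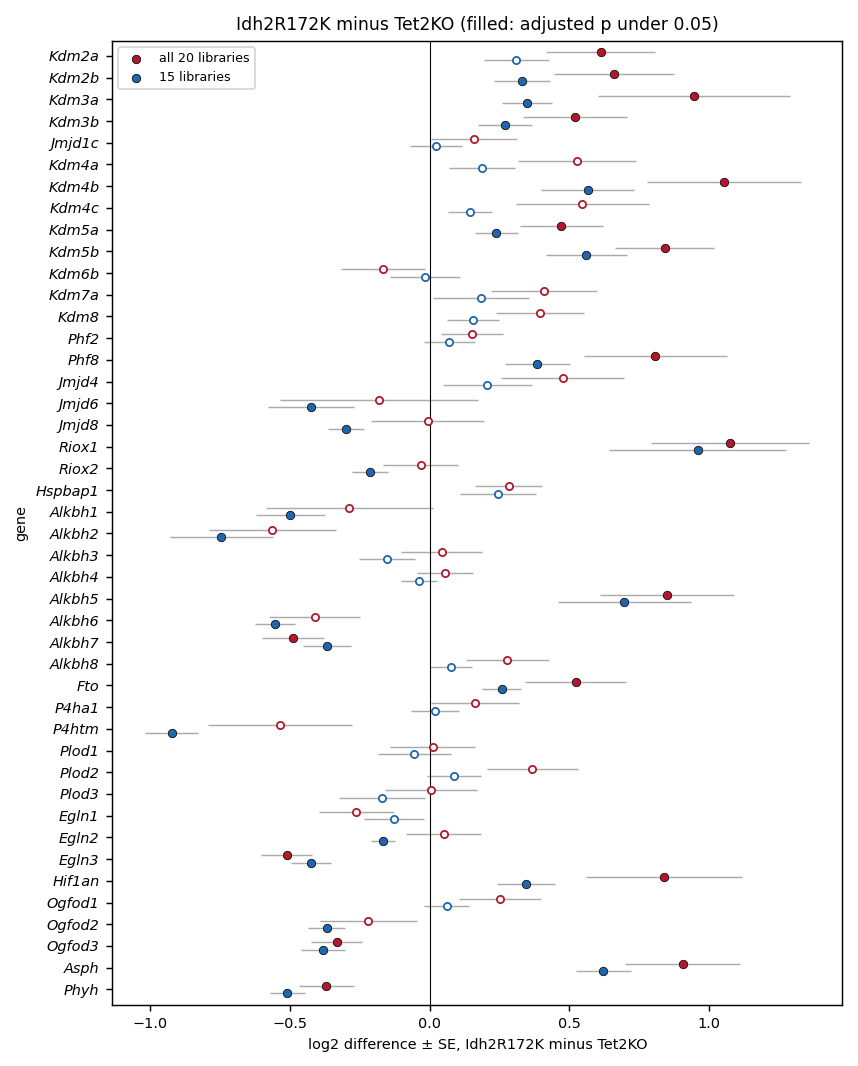
Log2 difference of Idh2R172K minus Tet2KO in log2(TPM + 1) (horizontal axis, bars are SE) for the 44 tested genes, from all 20 libraries (red) and from the 15 that remained without those that stood apart (blue); filled points passed an adjusted p of 0.05. The estimates of Kdm5b, Kdm4b, Riox1, Asph, Egln3 and Alkbh7 are called in both, and most other red points above 0 lie further right than the blue ones.

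The libraries that stood apart held the extreme value of their group in many of these genes. In 24 of 44 genes (54.5%) the number 4 library was the highest of its group in WT and in each of the 3 Idh groups, against 35.1% of all tested genes. Tet2KO replicate 2 was the lowest of its group in 36 of 44 (81.8%, against 67.5% of all), and both held in 23 (52.3%, against 30.4%). Of the 15 histone demethylases 12 were among the 24; Alkbh7 was the only gene with number 4 lowest in all 4 of those groups (2.27%, against 4.49% of all).

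Jmjd6, a lysyl hydroxylase of splicing factors, had the largest ratio. It measured 16.6, 13.1, 12.4 and 36.3 TPM in WT, 15.8, 13.2, 12.4 and 32.6 TPM in Idh1R132H, 14.2, 13.9, 14.9 and 33.0 TPM in Idh2R140Q and 23.4, 16.1, 14.1 and 33.3 TPM in Idh2R172K. The number 4 libraries were 2.26 times the mean of the other 3, as a mean over the groups, while Tet2KO gave 23.2, 22.5, 24.6 and 23.6 TPM, between the low and high values of the other groups. The ratios of Alkbh1, a DNA and transfer RNA demethylase, P4htm and Kdm3a were 1.97, 1.91 and 1.82. Jmjd6, Alkbh1 and P4htm were not called in the 7 comparisons as tested. Without the 5 libraries all 3 were called higher in Tet2KO than in WT, and P4htm was also called there with the replicate block (adjusted p = 0.0168). The immediate early and heat shock list was higher in number 4 in all 5 groups, Tet2KO included (3946 TPM, against 2540 to 2718 TPM in the other Tet2KO libraries).

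**Figure D4:**
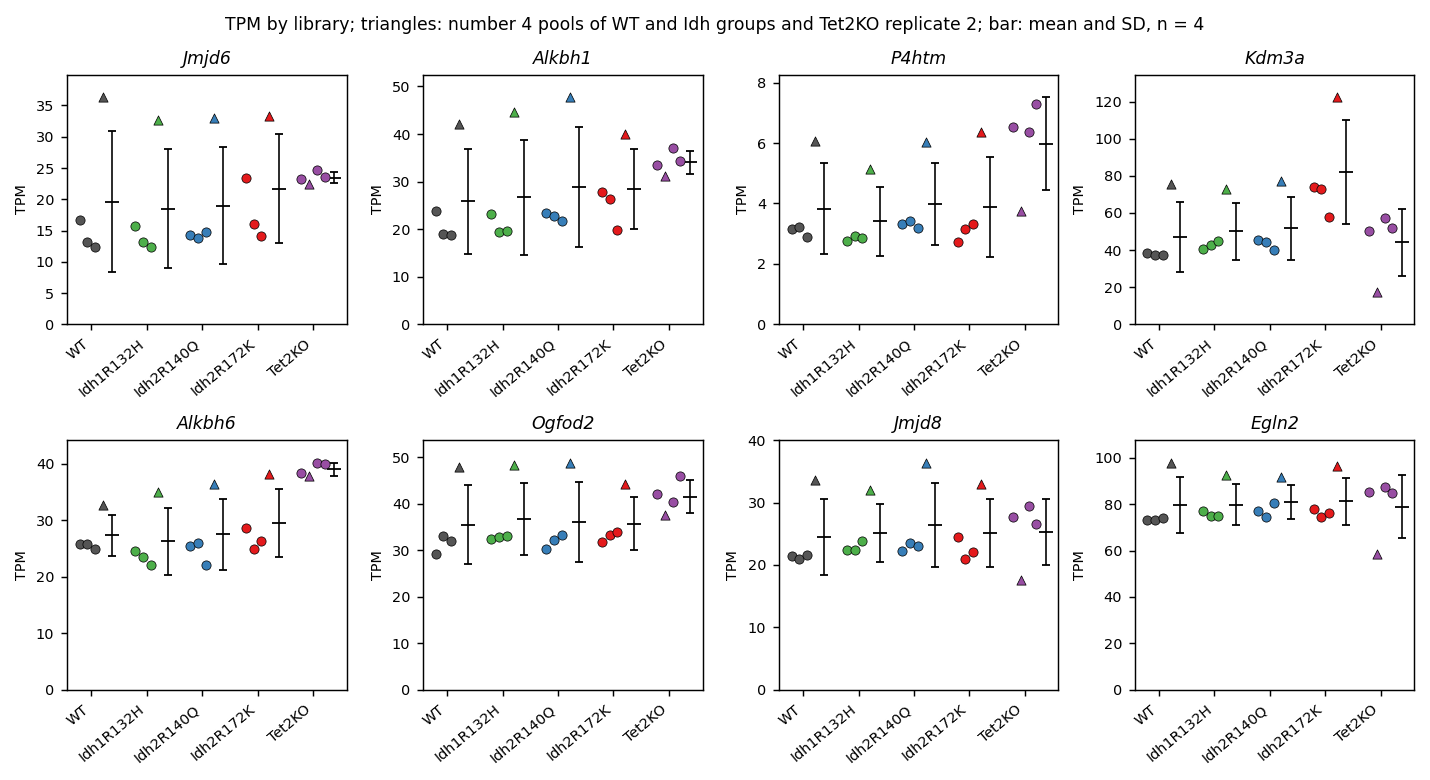
TPM (vertical axis, from 0) by library for 8 genes, drawn as replicates 1 to 4 from left to right in each group with the group mean and SD (n = 4); triangles are the number 4 libraries of WT and the Idh groups and Tet2KO replicate 2. In Jmjd6, Alkbh1, P4htm and Kdm3a the number 4 triangle lies above the other libraries of its group, for Jmjd6 at 32.6 to 36.3 TPM.

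Genes linked to the dioxygenases were counted from lists. In Idh2R172K against WT, all 3 TET genes were higher among 5 TET and flavin-dependent demethylases: Tet2 by 0.71 ± 0.20 (7.50 and 12.9 TPM, limma adjusted p = 0.0188), Tet1 by 0.53 ± 0.15 (0.0237) and Tet3 by 0.37 ± 0.12 (0.0385). Of 24 tested enzymes and carriers of 2-oxoglutarate and 2-hydroxyglutarate, 2 were higher and 2 lower. Idh2 was higher by 0.83 ± 0.11 (adjusted p = 2.40e-05), Gpt2, the mitochondrial alanine transaminase, lower by -0.86 ± 0.19 (0.00397) and Slc25a11, the mitochondrial 2-oxoglutarate carrier, higher by 0.29 ± 0.08 (0.0251). Of 7 tested dioxygenases outside the 46, 0 passed by limma and 1 had an unadjusted p under 0.05, against 15.4 and 28.8% of all genes.

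Enzymes that act opposite to the demethylases, and proteins that read RNA methylation, were counted against the share of all genes called. That share was 15.4% in Idh2R172K and 7.05% in Tet2KO. In Idh2R172K 1 of 27 histone lysine methyltransferase genes was called, Kmt2e (0.27 ± 0.09, limma adjusted p = 0.0401), with a list median of 0.23 and 24 above 0. Of 15 tested writers and readers of methyladenosine in RNA, Igf2bp2 was called, lower at 0.368 against 1.28 TPM (-0.74 ± 0.13, adjusted p = 0.000655). In Tet2KO 0 of 27 and 0 of 15 were called, with 5 and 4 at an unadjusted p under 0.05, against 26.6% of all genes.

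Targets and partners of the hydroxylases are counted against the same shares. Of 24 tested HIF pathway genes, 2 were higher and 2 lower in Idh2R172K. Ankrd37 rose by 0.68 ± 0.16 (2.60 and 4.87 TPM, limma adjusted p = 0.00507) and Hk2, a hexokinase, by 0.47 ± 0.11 (0.00567), while Pgk1, an enzyme of glycolysis, was lower (-0.36 ± 0.10, adjusted p = 0.0153). In Tet2KO 0 were higher and 2 lower, Pgk1 (-0.34 ± 0.10, adjusted p = 0.0430) and Ero1l (-0.73 ± 0.21, 0.0448).

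Among 8 tested collagens and collagen chaperones, 4 were higher and 2 lower in Idh2R172K. Fkbp10, a chaperone of collagen in the endoplasmic reticulum, was higher by 1.04 ± 0.14 (1.02 and 3.14 TPM, limma adjusted p = 2.96e-05) and Col18a1 by 1.11 ± 0.18 (adjusted p = 0.000261), and Serpinh1 was lower by -1.43 ± 0.18 (2.65 and 0.347 TPM, 1.79e-05). P4hb, the partner subunit of the collagen prolyl hydroxylases, fell in both mutants, from 758 ± 47.7 TPM in WT to 557 ± 46.1 TPM in Idh2R172K (-0.44 ± 0.11, adjusted p = 0.0116) and 545 ± 95.8 TPM in Tet2KO (-0.49 ± 0.11, adjusted p = 0.0190), again against the same WT libraries. In Tet2KO it was the 1 call among the 8. All lists were chosen with earlier results of these data known.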

How the data were processed

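RNA of 20 libraries was sequenced. The submitters' processing notes name Trim Galore, STAR, featureCounts and mm10, and versions and the strand setting are not given in the sources used here. The deposited values are TPM made by the authors. Each column went to the sample with its mutation and replicate number, and those whose prefix names Idh1 beside the R140Q substitution were taken as Idh2R140Q. Symbols and coordinates came from GENCODE M21 (45229 of 46078 IDs matched). Depth was read from TPM times exon length, where 90.1 to 91.1% of values up to 30 reads were whole within 0.1 reads.

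Differences were tested with limma 3.58.1 (R 4.3.3) on log2(TPM + 1), which understates changes of low genes. A gene entered if its TPM averaged 1 or more. One fit held the 5 groups, with an intensity trend, and gave 7 comparisons. Two-sided p were adjusted (Benjamini-Hochberg) over 14176 genes and called under 0.05. The code was tested on simulated data. P-values measure the spread between pools of 2 mice.

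Same-numbered libraries correlated above 0.1 in every pair for Idh2R172K with Idh1R132H (0.167 at the lowest) and with Idh2R140Q (0.213), and for Idh1R132H with WT (0.176). This comes from the data, since the labels do not say what a number shares. By the naming rule all 46 genes are named, and each gene called in a comparison has its value in every library of both groups. Outside the 46, Idh1, Idh2, Tet2, cell markers and up to 3 called genes per list and comparison with the smallest p could be named. Overlapping genes, and P4hb in Idh2R172K, were named after their values were seen. The genes and lists were chosen with earlier results of these data known. Alternatives were another pseudocount (0.1), another or no filter (5 TPM on average), median-of-ratios scaling, fits of the 2 groups alone, with a replicate block or with no intensity trend, and leaving out the 5 libraries that stood apart or each library in turn. Python 3.11.15, pandas 2.3.3 and matplotlib 3.10.9 made the tables and figures.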

Additional observations from a re-analysis of the deposited data

Results flagged for a closer look

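Single libraries far from the other 3 of their group were found in 36 of 220 groups of 4 (16.4%), over 19 genes, by the gap to the nearest library as a share of the range, against the 95% critical value of Dixon. Chance gives about 1 in 20 such groups if they are independent, and these groups share the same 20 libraries. The count was not made over all tested genes, so it is not a result about this family. Number 4 was the highest of its group in WT and all Idh groups in 35.1% of all tested genes. In 32 of the 36 the number 4 library of WT or an Idh group was the highest. In WT these were Kdm3a (75.4 TPM), Kdm4c (30.0), Jmjd8 (33.6), Alkbh6 (32.7), P4ha1 (38.9), P4htm (6.06) and Egln2 (98.0). In Idh1R132H they were Kdm2a (36.4 TPM), Kdm3a (72.8), Kdm4b (55.4), Kdm4c (30.5), Jmjd6 (32.6), Jmjd8 (32.0), Alkbh1 (44.6), P4ha1 (41.9), P4htm (5.13), Egln2 (92.8), Hif1an (49.2) and Ogfod2 (48.5).

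In Idh2R140Q number 4 stood out for Kdm3a (77.1 TPM), Kdm4c (34.4), Jmjd6 (33.0), Jmjd8 (36.4), Alkbh1 (47.7), Alkbh3 (32.8), P4htm (6.02) and Ogfod2 (48.9). In Idh2R172K it stood out for Kdm4a (49.9 TPM), P4htm (6.36), Plod2 (6.64), Egln2 (96.3) and Ogfod2 (44.2). The other 4 libraries were Idh2R140Q replicate 3, low for Kdm6b (2.72 TPM), Tet2KO replicate 3, high for Phf2 (10.0 TPM), Idh2R172K replicate 1, low for Egln1 (8.21 TPM), and Tet2KO replicate 2, low for Egln2 (58.6 TPM).

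The limma test of the difference between 2 mutant groups, both of which are set against the same WT libraries, passed for 25 gene and comparison pairs. Idh2R172K was above Tet2KO on the log2 scale for Kdm2a (0.61), Kdm2b (0.66), Kdm3a (0.95), Kdm3b (0.52), Kdm4b (1.05), Kdm5a (0.47), Kdm5b (0.84), Phf8 (0.81), Riox1 (1.08), Alkbh5 (0.85), Fto (0.52), Hif1an (0.84) and Asph (0.91). It was below Tet2KO for Alkbh7 (-0.49), Egln3 (-0.51), Ogfod3 (-0.33) and Phyh (-0.37). Against Idh2R140Q the differences were -0.40 (Alkbh7), -0.54 (Plod3) and -0.60 (Egln3). Against Idh1R132H they were 0.48 (Jmjd1c), 0.54 (Kdm6b), -0.39 (Alkbh7), -0.61 (Plod3) and -0.59 (Egln3).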

How the results depend on the processing

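No gene called with all libraries in the 5-group fit changed direction under any alternative. Of genes called only without the 5 libraries that stood apart, the sign differed from that with all libraries for Kdm3a (-0.15 to 0.48), Kdm4c (-0.21 to 0.23) and Egln2 (-0.02 to 0.22) in Tet2KO against WT, and for Egln2 (0.05 to -0.17) in Idh2R172K against Tet2KO. The counts of called genes rose without the 5 libraries that stood apart: from 7 to 18 for Idh2R172K against WT, from 1 to 16 for Tet2KO against WT, from 17 to 25 for Idh2R172K against Tet2KO, from 3 to 12 against Idh2R140Q and from 5 to 16 against Idh1R132H. With median-of-ratios scaling Tet2KO against WT gave 11, Idh2R172K against Tet2KO 26 (from 17) and against Idh2R140Q 6. With only the 2 groups compared Tet2KO against WT gave 0, Idh2R172K against Tet2KO 1 and against Idh1R132H 9. A mean of at least 5 TPM removed Kdm6b from the test and gave 0 for Tet2KO against WT, and no filter gave 11 for Idh2R172K against Tet2KO, 1 of them P4ha2 (0.21, adjusted p = 0.0204), which enters only there. The cause of the other moves was not tested. Leaving out 1 library gave 3 to 5 for Idh2R172K against WT, 1 to 2 for Tet2KO against WT, 9 to 20 for Idh2R172K against Tet2KO, 1 to 3 against Idh2R140Q and 2 to 5 against Idh1R132H. For fits without 1 library, of the 2 groups alone or with another filter, the share of all genes called is not given. Their counts, here and above, are therefore not a result about this family.

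With the replicate block the count for Tet2KO against WT was 5 (17.5% of all genes called), for Idh2R172K against Tet2KO 26 (37.1%), against Idh2R140Q 5 (14.6%) and against WT 10 (22.2%); it ended no call. Over all 5 groups, same-numbered libraries correlated above 0.1 in 22 of 40 pairs (-0.197 to 0.538), and 14 of 20 libraries correlated best with their own number. The groups differed in this. Number 4 libraries correlated at 0.404 to 0.538 among WT and the Idh groups, and at -0.111 to 0.0793 with Tet2KO. Idh2R172K with WT ran from -0.0234 to 0.404 over the numbers. The main fit has no block for the number. Tmlhe is listed at 0.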
